A study of Mus musculus with 3 samples.

Results

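The 37 genes of the mouse mitochondrial genome were taken as all genes whose symbol begins with mt-, out of 55536 annotated genes in the tables. They are 13 mRNA genes, 2 rRNA genes and 22 tRNA genes, and all 37 lie on the mitochondrial chromosome. Mitochondria keep a small circular genome that encodes core subunits of the respiratory chain and of ATP synthase together with the rRNAs and tRNAs that translate them. Both of its strands are transcribed into long precursor RNAs, from which the mRNAs and rRNAs are released largely by cutting out the tRNAs that lie between them. In macrophages the respiratory chain is known as a point where metabolism and inflammatory activation meet. Pieces of mitochondrial DNA have also been copied into the nuclear chromosomes during evolution, and such copies can be nearly or fully identical to the mitochondrial genes.

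The cells were C57BL/6J macrophages grown from bone marrow, a primary culture. All of them were exposed to Lipid A, the endotoxin component sensed by Toll-like receptor 4, at 100 ng/ml for 12 h, were left without it for 12 h, and met the same 100 ng/ml dose once more for 10 min. Cytosolic RNA was freed of most rRNA, and 1 µg entered each library, with inserts of 250 to 400 bases. The 3 libraries form a single group, labelled replicates 1, 2 and 3, so the values below are levels and no contrast between conditions was made. The labels give all libraries the same donor identifier and record neither age nor sex, so the spread between libraries may be partly technical.

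A pair of deposited quantifications of the same reads were compared. The gene table lists expected counts from an alignment to the transcriptome, and the direct table lists estimated counts made from the reads without that alignment. The gene tables held 32108408, 53165872 and 57117456 expected counts in replicates 1, 2 and 3. All 8 macrophage markers exceeded 1 TPM (transcript abundance corrected for length and scaled to the same total in each library) in every library, from 41.1 TPM for Mertk to 2989 TPM for Lyz2. Of the reported markers of T and B cells, neutrophils, erythroid cells, fibroblasts and dendritic cells, S100a8 alone exceeded 1 TPM in every library, at 3.04 TPM, while Cd3e, Ly6g, Retnlg, Hbb-bs and Cd209a were at 0 expected counts. Replicate 1 stood apart across the transcriptome: 10.2% of the 13573 genes that averaged 10 or more counts were more than 2-fold higher there than in the other libraries, and 1.89% were more than 2-fold lower. The mitochondrial values are therefore given for each library.

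The genes sit almost end to end on the chromosome, and 14 of the 15 rRNA and mRNA genes have a tRNA gene as a direct neighbour. The widest gap between neighbouring genes is 32 bases, and 9 of the 36 neighbouring pairs overlap. The strand convention used here calls a gene H-strand encoded when its RNA reads in the direction of the mm10 reference sequence. By this convention both rRNAs, 12 mRNAs and 14 tRNAs are H-strand encoded. The mRNA of mt-Nd6, a membrane subunit of complex I, and 8 tRNAs are L-strand encoded. The mRNAs of mt-Co3, mt-Nd4 and mt-Cytb end with a single leftover T after their last whole codon, so that their stop codon is completed only by the poly(A) tail.

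Of the 13 mRNA genes, 9 have an annotated nuclear copy, and their counts are given with and without these copies. A search of all annotated transcripts outside the mitochondrial chromosome found 11 pseudogenes with at least 95% identity over at least 100 bases. Of these, 7 lie side by side on the minus strand of chromosome 1 (chr1:24611535-24616197, mm10, 4663 bases) and match the mitochondrial bases from 6390 to 11042, which run from the end of mt-Co1 into mt-Nd4. The other 4 lie on chromosomes 2 and 13, and the highest of their values was 31.3 expected counts, for Gm13340 in replicate 2. On chromosome 1 the copies of mt-Co2, mt-Atp6, mt-Co3, mt-Nd4l and the first 876 bases of mt-Nd4 are identical to the mitochondrial gene in every aligned base. The chromosome 1 copies of mt-Co1 and mt-Nd3 differ in a single base of the aligned stretch, A1066T and T3C, counted from 1 at the 5′ end of the mitochondrial gene. These differences are shown because, within the aligned stretch, only fragments over them differ between gene and copy. The first 1062 bases of mt-Co1 lie outside the alignment with Gm29216, as do the last 3 bases of mt-Nd3 with Gm28438. The windows are chrM:6381-6420 with its counterpart chr1:24616158-24616197 (minus strand), and chrM:9459-9488 with chr1:24613090-24613119 (minus strand). Capitals mark the bases that differ. In the first window 6 of 40 bases differ, and all but A1066T lie in the 9 bases before the aligned stretch begins.
mt-Co1: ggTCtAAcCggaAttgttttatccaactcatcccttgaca
Gm29216: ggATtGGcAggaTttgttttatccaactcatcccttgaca
mt-Nd3: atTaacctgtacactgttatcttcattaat
Gm28438: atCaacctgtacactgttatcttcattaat

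The copies of mt-Co2, mt-Atp6, mt-Co3 and mt-Nd4l end just before the mitochondrial gene does. The last bases of mt-Co2 (chrM:7667-7696), mt-Atp6 (chrM:8578-8607) and mt-Co3 (chrM:9361-9390) are shown with the ends of their copies on chromosome 1, which lie at chr1:24614885-24614911, chr1:24613974-24614000 and chr1:24613189-24613217 on the minus strand. Capitals mark the mitochondrial bases beyond the annotated copy, which are the only bases of these genes that the copy's transcript does not hold. Between the annotated copies chromosome 1 leaves stretches of nearly the same length as the mitochondrial genome does. From Gm28661 to Gm10925 both leave 233 bases, on the mitochondrial side bases 7694 to 7926, which hold most of mt-Atp8. In all, 6 mitochondrial genes lie inside the matched span without an annotated copy, namely mt-Atp8 and the tRNA genes mt-Ts1, mt-Td, mt-Tk, mt-Tg and mt-Tr. Only annotated transcripts were searched, so whether chromosome 1 also holds copies of these was not tested.
mt-Co2: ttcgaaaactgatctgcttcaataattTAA
Gm28661: ttcgaaaactgatctgcttcaataatt
mt-Atp6: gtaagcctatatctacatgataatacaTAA
Gm10925: gtaagcctatatctacatgataataca
mt-Co3: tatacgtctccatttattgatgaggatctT
Gm28437: tatacgtctccatttattgatgaggatct

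The 37 genes together held a small share of the reads. They took 0.504%, 0.347% and 0.363% of expected counts in replicates 1, 2 and 3, a mean of 0.404% ± 0.0866 (SD, n = 3). The exact binomial 95% intervals, which cover counting error only, ran from 0.501% to 0.506%, from 0.345% to 0.348% and from 0.361% to 0.364%. Replicate 1 was the highest and lay outside the intervals of the other libraries. With the counts of the nuclear copies added, the share was 0.691%, 0.471% and 0.498%, or 0.553% ± 0.120 (SD, n = 3). By TPM the share was 0.530%, 0.303% and 0.302%, and the 13 mRNAs made up 1.51%, 1.08% and 1.07% of the TPM of all protein-coding genes. Whether a share rests on more mitochondria, on more RNA per mitochondrion or on the fractionation cannot be told apart in these bulk libraries.

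The rRNAs, the RNA of the mitochondrial ribosome, were far below the mRNAs in these depleted libraries. The gene of the small-subunit rRNA, mt-Rnr1 (chrM:70-1024), had 724, 157 and 284 expected counts in replicates 1, 2 and 3, or 22.0, 2.29 and 3.84 TPM. The gene of the large-subunit rRNA, mt-Rnr2 (chrM:1094-2675), had 663, 119 and 250 expected counts, or 10.7, 0.93 and 1.80 TPM. Both were highest in replicate 1 and lowest in replicate 2. Their summed share of expected counts was 0.00434%, 0.00052% and 0.000936%.

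Of the mRNAs, 4 have no annotated copy. The mRNA of mt-Atp8, a small membrane subunit of ATP synthase, was listed at 1787, 969 and 915 TPM, and that of mt-Nd6 at 321, 185 and 174 TPM. The complex I subunit mt-Nd1 (chrM:2751-3707) was at 265, 184 and 187 TPM, and cytochrome b, mt-Cytb (chrM:14145-15288), which complex III is built around, at 281, 182 and 170 TPM. Apart from mt-Atp8 these mRNAs lay close together. The within-library log2 ratio of mt-Nd6 to mt-Nd1 averaged 0.06 ± 0.20 and that of mt-Nd1 to mt-Cytb 0.02 ± 0.11 (SD, n = 3), both smaller than their spread.

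The mRNAs with copies ranged widely when the mitochondrial gene was taken alone. The catalytic subunit of cytochrome c oxidase, mt-Co1 (chrM:5328-6872), had 1497, 742 and 837 TPM, whereas mt-Co2, which receives the electrons from cytochrome c in the same enzyme, had 0, 10.4 and 8.78 TPM. The third core subunit, mt-Co3, had 91.25, 119.5 and 59.2 TPM, and mt-Atp6, the ATP synthase subunit that carries protons, had 94.05, 51.0 and 39.5 TPM. Among complex I subunits, mt-Nd5 (chrM:11742-13565) had 276, 154 and 153 TPM, mt-Nd4 (chrM:10167-11544) 256, 153 and 153 TPM, and mt-Nd2 (chrM:3914-4951) 121, 74.1 and 76.9 TPM. The short mt-Nd3 had 90.7, 43.0 and 65.3 TPM and mt-Nd4l 182, 163 and 173 TPM. Replicate 1 was the highest library on the TPM scale for each of the 13 mRNAs but mt-Co2 and mt-Co3, which were highest in replicate 2.

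Adding the copies raised mt-Co2, mt-Co3 and mt-Atp6 the most. The mitochondrial gene and its copies together gave mt-Co2 1137, 601 and 653 TPM, mt-Co3 806, 456 and 507 TPM, and mt-Atp6 691, 386 and 389 TPM. On the same summed scale mt-Co1 had 1919, 985 and 1047 TPM, mt-Nd4l 461, 295 and 301 TPM and mt-Nd3 268, 153 and 168 TPM. In each of the 13 mRNAs replicate 1 was then the highest library. The sum counts reads from either source, and within an identical stretch reads of the mitochondrial gene and of its copy cannot be told apart.

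**Figure D1:**
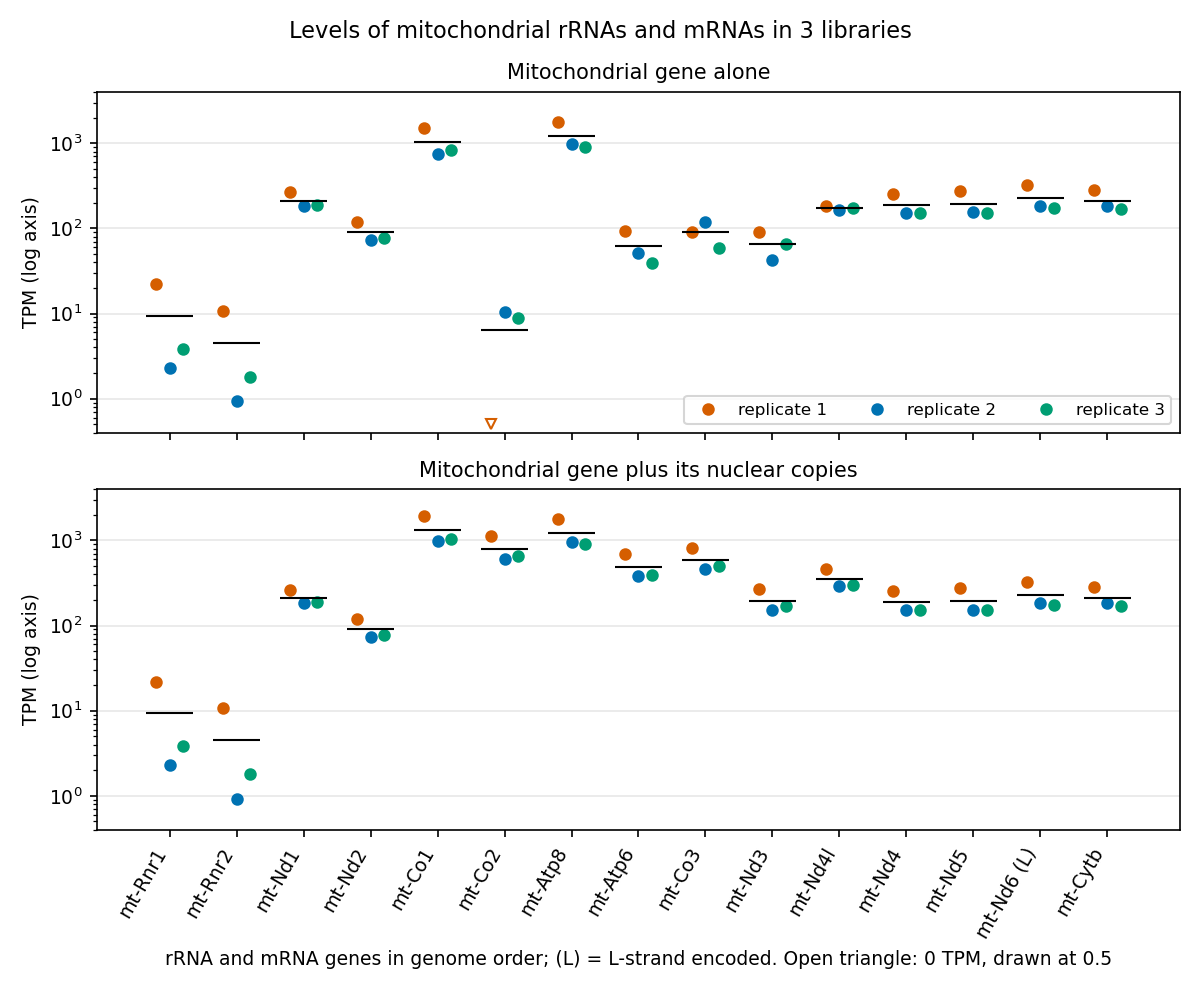
TPM of the 15 rRNA and mRNA genes in genome order, each point a library and each line the mean of 3, on a log axis, for the mitochondrial gene alone (top) and with its nuclear copies added (bottom). Alone, mt-Co2 ranged from 0 to 10.4 TPM beside mt-Co1 at 742 to 1497 TPM, and with copies mt-Co2 ranged from 601 to 1137 TPM.

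The order of the mRNAs depended on whether the copies were counted. Neighbours are called separate here when their within-library ratio had the same direction in all 3 libraries and a mean above its SD. This is a description, since 3 libraries cannot give an exact 2-sided sign permutation p below 0.25. By summed TPM with the copies, the order was mt-Co1, mt-Atp8, mt-Co2, mt-Co3, mt-Atp6, mt-Nd4l and mt-Nd6, each step separate. The steps ran from 0.11 ± 0.09 on the log2 scale between mt-Co1 and mt-Atp8 to 0.66 ± 0.14 between mt-Nd4l and mt-Nd6 (SD, n = 3). The step from mt-Co1 to mt-Atp8 depends on summing TPM over unlike lengths. The mt-Co1 copy Gm29216 has 492 bases against 1545, so the same reads give more TPM on Gm29216 than on mt-Co1. Alone, mt-Atp8 exceeded mt-Co1 by 0.26 ± 0.13 on the log2 scale, in all 3 libraries. From mt-Nd6 through mt-Nd1, mt-Cytb, mt-Nd3 and mt-Nd5 to mt-Nd4 no step was separate. The lowest, mt-Nd2, was separate from mt-Nd4 by 1.04 ± 0.05. Without the copies the order opened with mt-Atp8 and mt-Co1 and closed with mt-Atp6 and mt-Co2.

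By position, the highest mRNAs by TPM with copies included lie in the stretch from mt-Co1 to mt-Co3, which holds all 3 oxidase subunits and both ATP synthase subunits. Per annotated base with copies, mt-Co1, mt-Co2, mt-Co3 and mt-Atp6 were again the highest, but mt-Atp8 ranked 10th. In that stretch mt-Atp8 and mt-Atp6 share 43 bases and mt-Atp6 and mt-Co3 share 1 base, with no tRNA gene between them. Of all mitochondrial mRNA counts with copies, the complex IV mRNAs held 63.0%, 59.3% and 62.2%, the complex I mRNAs 24.6%, 27.0% and 25.5%, the complex V mRNAs 7.08%, 7.45% and 6.69%, and the complex III mRNA mt-Cytb 5.33%, 6.29% and 5.60%. The direct table with copies gave nearly these shares, with 63.5%, 59.9% and 62.6% for complex IV. Without the copies, the gene table placed 2.19%, 2.33% and 1.57% of the counts on complex V.

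The lead of mt-Atp8 on the TPM scale rested on its effective length, the number of positions at which a fragment can start. The annotated mRNA, chrM:7766-7969, has 204 bases, fewer than the shortest insert of 250 bases stated for the libraries. The gene table gave it effective lengths of 19.1, 23.1 and 15.3 bases and those in the direct table were 45.4, 49.0 and 48.0 bases. Its expected counts were 1578, 2092 and 1457, and its estimated counts in the direct table were 1812, 2280 and 1602. Per annotated base, with copies counted for the others, it ranked 10th at 8.38 ± 1.65 expected counts per base, against 67.3 ± 8.30 for mt-Co1 and 38.3 ± 4.76 for mt-Co2 (SD, n = 3). The sequence is shown because the whole mRNA is shorter than an insert and its end doubles as the start of the next gene. Capitals mark the bases shared with mt-Atp6.
mt-Atp8: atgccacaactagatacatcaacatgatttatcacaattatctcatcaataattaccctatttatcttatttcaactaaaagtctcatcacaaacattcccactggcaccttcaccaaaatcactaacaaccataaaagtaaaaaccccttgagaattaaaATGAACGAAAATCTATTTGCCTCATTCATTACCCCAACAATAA

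The pairs mt-Atp8 with mt-Atp6 and mt-Nd4l with mt-Nd4, each known to stay joined on a single mature RNA, were not equal on either scale. With copies, mt-Atp8 exceeded mt-Atp6 in TPM, at 1787 against 691 in replicate 1, 969 against 386 in replicate 2 and 915 against 389 in replicate 3. Per annotated base the order turned, with 8.38 ± 1.65 counts for mt-Atp8 and 23.5 ± 2.70 for mt-Atp6 (SD, n = 3). Likewise mt-Nd4l, which overlaps mt-Nd4 by 7 bases, exceeded mt-Nd4 in TPM with copies, at 461 against 256, 295 against 153 and 301 against 153. Per annotated base mt-Nd4l held 6.82 ± 1.45 and mt-Nd4 11.6 ± 1.72 counts.

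The L-strand-encoded mt-Nd6 lay within the range of the H-strand-encoded mRNAs, and its place relative to their median turned with the copies. Alone, its TPM was 1.47, 1.20 and 1.14 times the median of the 12 H-strand-encoded mRNAs in replicates 1, 2 and 3, a mean log2 difference of 0.335. Counting the copies, it was 0.867, 0.771 and 0.713 times that median, a mean log2 difference of -0.356. Among the mRNAs without an annotated copy only, the mean difference was 0.0333, below its SD of 0.151. The direction therefore did not hold over these scales. The end of mt-Nd6 overlaps that of mt-Nd5 by 14 bases on the opposite strand. Whether the counting used strand is not stated, so reads of the H-strand precursor across mt-Nd6 cannot be told apart from mt-Nd6 mRNA.

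The tRNA genes were counted by the direct table only. Their 59 to 75 bases are far shorter than the inserts, and the gene table listed all 22 with an effective length of 0 and 0 counts. In the direct table they held 336, 248 and 244 estimated counts. The 8 L-strand-encoded tRNAs held 323, 238 and 227 of these, which is 96.1%, 96.0% and 93.0%, with exact binomial 95% intervals of 93.5% to 97.9%, 92.7% to 98.0% and 89.1% to 95.9%, which again cover counting error only. The 14 H-strand-encoded tRNAs shared the remaining 13, 10 and 17 counts, although their effective lengths in the direct table, 15.0 to 23.2 bases, were like the 16.0 to 20.4 bases of the L-strand-encoded tRNAs.

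Within the L-strand-encoded tRNAs the counts were uneven. The tRNA for proline, mt-Tp, had 120, 130 and 147 estimated counts and was the highest in every library. That for glutamate, mt-Te, had 90, 25 and 22 counts, that for serine next to mt-Co1, mt-Ts1, had 58, 39 and 23, and that for cysteine, mt-Tc, had 27, 16 and 18. The remaining 4, mt-Tq, mt-Ta, mt-Tn and mt-Ty, had means below 10, and 7 of the 8 had counts in every library. Of the H-strand-encoded tRNAs, 3 had counts in every library, 4 had none in any, and the highest single value was 6 counts, for mt-Th in replicate 3.

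The sequences of the 4 leading tRNA genes are shown 5′ to 3′ on the minus strand, because they place the counts at chrM:15356-15422, chrM:14071-14139, chrM:6870-6938 and chrM:5192-5257 in this order. Capitals mark the anticodon. The first of them is the last gene of the annotation, the second lies directly beside mt-Nd6, and the third overlaps the end of mt-Co1 by 3 bases on the opposite strand. Since the use of strand is not stated, reads of H-strand precursors over these genes cannot be told apart from L-strand RNA. Each count also comes from a transcript model shorter than the inserts, and how much of it is mature tRNA was not tested.
mt-Tp: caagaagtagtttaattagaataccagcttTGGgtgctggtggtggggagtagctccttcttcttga
mt-Te: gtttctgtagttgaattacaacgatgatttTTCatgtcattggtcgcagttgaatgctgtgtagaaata
mt-Ts1: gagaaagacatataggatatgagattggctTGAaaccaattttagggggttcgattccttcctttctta
mt-Tc: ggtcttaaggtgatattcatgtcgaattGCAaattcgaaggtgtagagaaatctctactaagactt

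**Figure D2:**
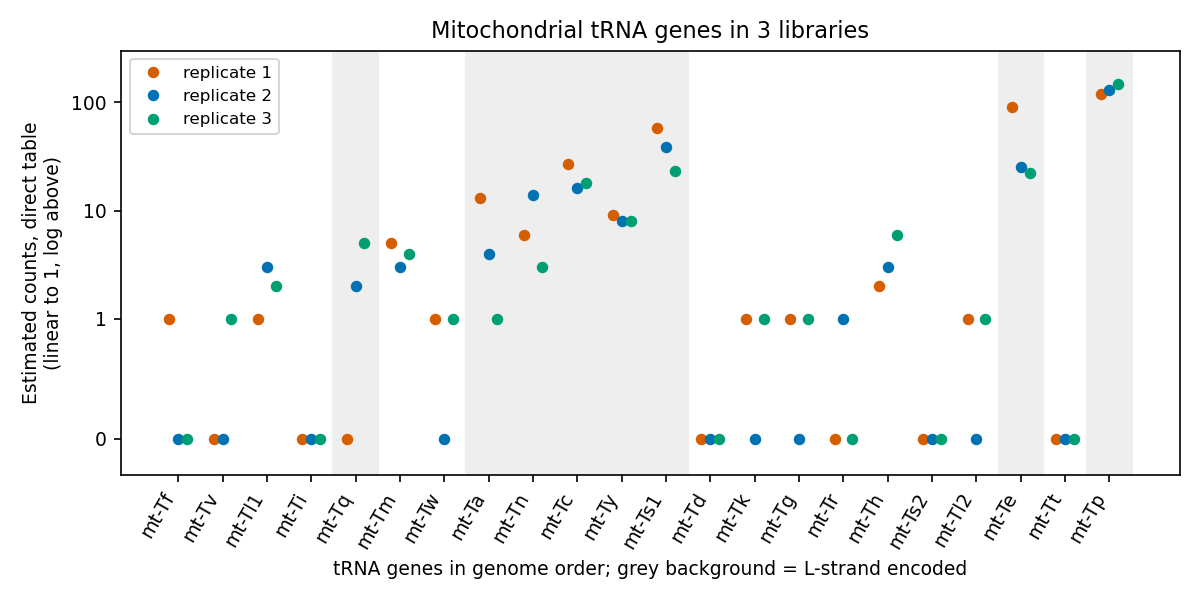
Estimated counts of the 22 tRNA genes in the direct table, in genome order, each point a library, on an axis that is linear up to 1 and logarithmic above. The L-strand-encoded genes on grey hold 227 to 323 counts per library, and no H-strand-encoded gene exceeds 6.

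The quantifications differed most for some of the mRNAs with copies and for mt-Rnr2. The difference was called where the direct table was more than 2-fold higher, or lower, than the gene table in every library. This held for 8 of the 19 mitochondrial genes averaging 10 or more counts in either table, all of them higher in the direct table, against a background of 13.4% of 16605 genes higher and 1.28% lower. The 8 are mt-Rnr2, mt-Co2, mt-Atp6, mt-Nd4l and the tRNA genes mt-Tp, mt-Te, mt-Ts1 and mt-Tc. These 4 tRNA genes have an effective length of 0 in the gene table, which leaves them no other outcome. Without them, 4 of the 15 mRNAs and rRNAs tested were called, against the same 13.4%. The log2 ratio had a median of 0.20, 0.15 and 0.15 over the 13 mRNAs and of 0.22, 0.12 and 0.11 over all genes tested.

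The tables split the identical pairs differently, most of all mt-Atp6 and its copy. For mt-Atp6 the gene table listed 1912, 2195 and 1791 counts and its copy Gm10925 12053, 14320 and 15737, whereas the direct table listed mt-Atp6 at 14319, 17203 and 18451 and the copy at 846, 421 and 140. The share on the mitochondrial gene was thus 13.7%, 13.3% and 10.2% in the former and 94.4%, 97.6% and 99.2% in the latter. For mt-Co2 both tables favoured the copy. The gene table listed mt-Co2 at 0, 449 and 401 counts and Gm28661 at 23115, 25448 and 29200, and the direct table listed mt-Co2 at 2344, 1981 and 2266 counts and Gm28661 at 22027, 25091 and 28341.

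The pairs mt-Co3, mt-Nd3 and mt-Nd4l lay between these extremes. The share on mt-Co3 was 11.3%, 26.3% and 11.7% in the gene table and 46.6%, 37.9% and 32.2% in the direct table. That on mt-Nd3, whose copy differs by T3C, was 34.3%, 28.5% and 39.5% against 79.1%, 45.7% and 46.4%. For mt-Nd4l it was 40.3%, 55.9% and 58.3% against 100% in each library, since the direct table listed the copy Gm10222 at 0. Counts of mt-Nd4 went the same way in both tables: the copy Gm28439, identical over 876 bases, was at 0 expected counts in every library and at 0, 40.4 and 0 estimated counts. The longer mt-Co1 kept 93.7% to 95.4% of its pair's counts in the gene table and 91.1% to 95.5% in the direct table.

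**Figure D3:**
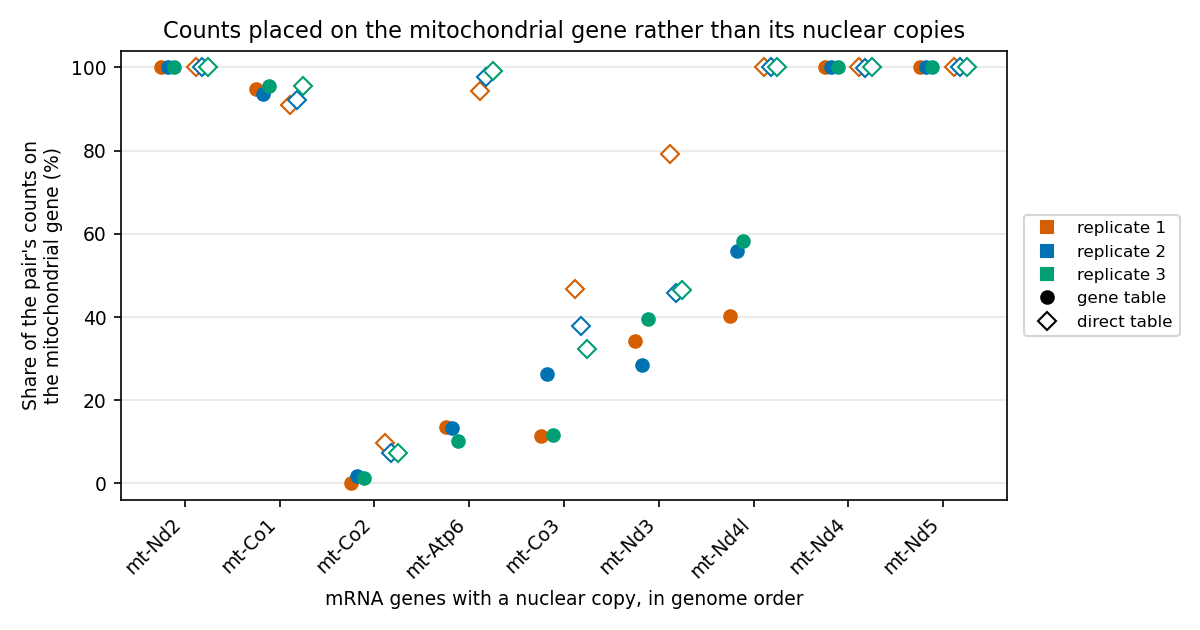
Share of each pair's counts that was placed on the mitochondrial gene and not on its nuclear copies, in percent, for the 9 mRNA genes with a copy in genome order. Filled circles are the gene table, open diamonds the direct table and colours the libraries. The share for mt-Atp6 is 10.2% to 13.7% in the gene table and 94.4% to 99.2% in the direct table.

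The gene table also carries its own estimate of this uncertainty. For mt-Co2 the posterior mean was 1452, 3745 and 3035 counts, with posterior SDs of 855, 1300 and 1176, beside expected counts of 0, 449 and 401. For mt-Co3 the posterior mean was 8323, 10877 and 11650 counts, with SDs of 2317, 1844 and 1954, beside expected counts of 2288, 6297 and 3321. The expected count of mt-Co2 was below its posterior mean in every library, by more than the posterior SD in each.

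The sums over mitochondrial gene and copies differed little between the tables. For mt-Atp6 estimated counts exceeded expected counts 7.49, 7.84 and 10.3-fold alone and 1.09, 1.07 and 1.06-fold with the copy. The sum for mt-Co2 differed 1.05, 1.05 and 1.03-fold, that for mt-Co3 1.05, 1.05 and 1.04-fold, and that for mt-Nd3 1.05, 1.05 and 1.04-fold. The sum for mt-Nd4l differed more, 1.39, 1.26 and 1.31-fold. With copies added in both tables, 5 of the 19 genes passed the 2-fold difference, as did 14.7% of all genes. The tRNA genes among the 5, uncounted in the gene table, had no other outcome. Of the 15 mRNAs and rRNAs, mt-Rnr2 alone passed. That rRNA had 2408, 676 and 874 estimated counts, 3.63, 5.68 and 3.50-fold its expected counts, and mt-Rnr1 had 1224, 287 and 447, or 1.69, 1.83 and 1.57-fold. No annotated copy of either rRNA met the search limits.

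**Figure D4:**
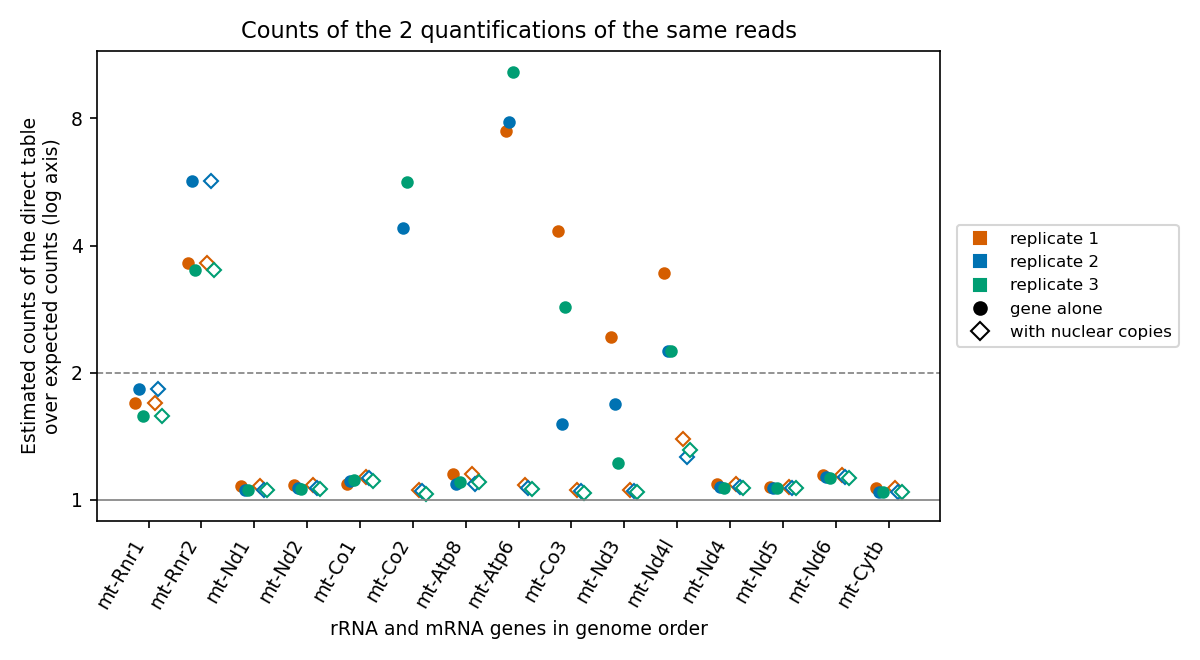
Estimated counts of the direct table divided by expected counts of the gene table, per library and on a log axis, for the 15 rRNA and mRNA genes in genome order, alone (circles) and with nuclear copies (diamonds); the dashed line is 2-fold. With copies every mRNA lies between 1.03 and 1.39, while mt-Rnr2 lies between 3.50 and 5.68; mt-Co2 alone has no point in replicate 1, where its expected count is 0.

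In the gene table all 15 rRNAs and mRNAs varied between the libraries by more than counting error. This chi-square test compares each gene's counts with a single rate, with Benjamini-Hochberg adjustment over 13573 genes, and the largest adjusted p among the 15 was 2.92e-06, for mt-Nd4l. Of all genes tested, 72.7% passed as well. The test finds smaller differences at higher counts, and the genes compared were not matched for depth. The median biological coefficient of variation, edgeR's estimate of the spread beyond counting, was 0.206 for the 15 and 0.182 for all genes. Without replicate 1 it was 0.108 for both, and 11 of the 15 passed, against 39.8% of all genes. Those not past the threshold were mt-Nd1 (adjusted p = 0.320), mt-Nd2 (0.0547), mt-Nd4 (0.221) and mt-Nd5 (0.282). These are 4 of the 6 H-strand-encoded complex I mRNAs, and the other 2, mt-Nd3 (8.18e-06) and mt-Nd4l (0.000682), passed. The counts of mt-Nd3 and mt-Nd4l are split with identical or near-identical copies, and the test takes no account of that uncertainty. The same holds for mt-Co1, mt-Co2, mt-Co3 and mt-Atp6, which also passed. Replicate 3 minus replicate 2 on the log2 scale was 0.39 for mt-Nd3 alone and -0.08 with its copy. For mt-Nd4l it was -0.21 and -0.27. For mt-Co3, mt-Atp6 and mt-Co2 it was -1.03, -0.40 and -0.27 alone, and 0.14, -0.02 and 0.09 with copies. For mt-Co1, which kept most of its pair's counts, it was 0.19 alone and 0.17 with copies. Of the 4 not past the threshold, mt-Nd1, mt-Nd4 and mt-Nd5 differed by no more than 1.02-fold between replicates 3 and 2.

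Replicate 1 held more of most mitochondrial RNAs, and the rRNAs stood out. Departures compare CPM (counts scaled to library size, with TMM) of replicate 1 with the mean of the other libraries on the log2 scale, and have no replicate check. The rRNAs were 5.97-fold (mt-Rnr1) and 6.68-fold (mt-Rnr2) higher in replicate 1 and were the only members past 2-fold upward, 2 of 15 against the background of 10.2%. Downward, mt-Co2 with its 0 counts was the only member past 2-fold, against 1.89%. The remaining mRNAs ran from 0.856-fold (mt-Nd4l) to 1.69-fold (mt-Atp6). With replicate 2 set apart in the same way, mt-Co2 was the only member past 2-fold upward and the rRNAs the only ones downward, against 1.5% and 7.35% of all genes. With replicate 3 set apart, mt-Co2 was again past 2-fold upward and no member downward, against 0.693% and 6.45%. Both upward calls of mt-Co2 mirror its 0 counts in replicate 1, since replicate 3 minus replicate 2 was only -0.27 on the log2 scale. The median log2 departure of replicate 1 was 0.45 over the 15 and -0.01 over all genes tested.

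With the copies added, the mRNAs formed a narrow band. The 13 mRNAs were then all higher in replicate 1, from 1.16-fold for mt-Nd1 to 1.59-fold for mt-Atp8, and none passed 2-fold. The sums for mt-Co2, mt-Co3 and mt-Nd4l were 1.47, 1.36 and 1.21-fold. Between replicates 3 and 2 the sums differed from 0.648-fold (mt-Atp8) to 1.12-fold (mt-Co1), while mt-Rnr1 and mt-Rnr2 differed 1.67 and 1.94-fold. In the direct table, with no copies added, mt-Te was 5.39-fold, mt-Ts1 2.79-fold and mt-Tc 2.25-fold higher in replicate 1, while mt-Tp was 1.31-fold higher. There 5 of 19 mitochondrial genes were past 2-fold in either direction, as were 25.9% of all genes.

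**Figure D5:**
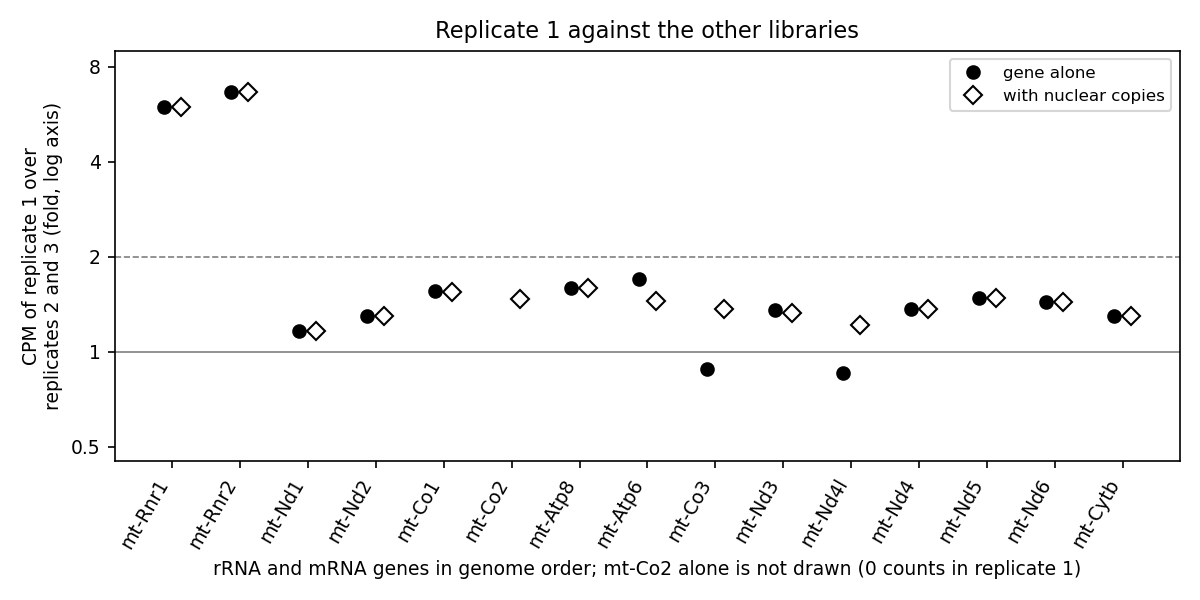
CPM of replicate 1 divided by the mean of replicates 2 and 3 (on the log2 scale, shown as fold on a log axis) for the 15 rRNA and mRNA genes in genome order, alone (circles) and with nuclear copies (diamonds). The rRNAs lie at 5.97 and 6.68, and the 13 mRNAs with copies at 1.16 to 1.59; mt-Co2 alone is left out because replicate 1 had 0 counts.

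RNAs known to be kept in the nucleus and an annotated nuclear rRNA gene were also higher in replicate 1. Malat1 was 10.4-fold, Neat1 5.10-fold and Xist 70.0-fold higher there. Xist, the RNA that coats the inactive X chromosome in female cells, was at 32.6, 0.42 and 0.35 TPM, and whether the libraries come from the same animal was not tested. The annotated rRNA gene CT010467.1 on chromosome 17 was 9.54-fold, Gm42418, which overlaps it on the opposite strand, 13.0-fold and the nearby Gm26917 81.2-fold higher. These were chosen after their values were seen, and without strand the reads of the overlapping pair cannot be told apart. Their part in the mitochondrial departures was not tested.

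Nuclear genes of mitochondrial transcription and RNA processing were mostly at a few TPM. Of 35 such genes listed, 34 were found, and 28 had at least 1 TPM in every library, with a median of 3.86 TPM. The highest were Slirp, an RNA-binding partner of Lrpprc that stabilises mitochondrial mRNAs, at 38.2 ± 10.3 TPM, Rexo2, an exonuclease for very short RNAs, at 22.3 ± 0.295 TPM, Hsd17b10, a subunit of the enzyme that cuts tRNA 5′ ends, at 14.7 ± 2.40 TPM, and Grsf1, a protein of mitochondrial RNA granules, at 14.5 ± 0.999 TPM (SD, n = 3). The mitochondrial RNA polymerase Polrmt had 5.31, 3.60 and 4.94 TPM, the transcription and packaging factor Tfam 5.71, 4.29 and 5.11 TPM, and Lrpprc 6.66 ± 0.325 TPM. The lowest were Mterf2 at 0.0733 ± 0.00577 and Mterf1b at 0.27 ± 0.02 TPM, both of the mitochondrial termination factor family. Of the 33 with enough counts, 18 varied between libraries beyond counting error, against 72.7% of all genes, again not matched for depth. In replicate 1 none was more than 2-fold higher, and Endog, a mitochondrial nuclease, was the only one more than 2-fold lower, against 10.2% and 1.89% of all genes.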

How the data were processed

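Cytosolic, rRNA-depleted RNA of 3 libraries of a single group was analysed. The authors deposited expected counts per gene (not whole numbers), with posterior means and SDs, and TPM per gene, which come from reads aligned to the GENCODE M21 transcripts of mm10, per the file headers and notes. The authors also deposited estimated counts and TPM per transcript, made directly from the reads; these were summed per gene here. The aligner, its version and the use of strand were not given in the sources used here. Entries that name no gene, 26345 in all with 0.0823% to 0.435% of expected counts, stayed out of tests and of the totals behind shares, and 86 genes have no transcript in the direct table.

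Members and lists were chosen with earlier results of these data known. Named genes are the mt- genes, their copies, the cell type markers, a fixed list of mitochondrial RNA genes and 3 nuclear-retained RNAs. CT010467.1, Gm42418 and Gm26917 were added after their values were seen. Prorp was not found under that symbol. Copies were sought with BLAST 2.17.0 among annotated transcripts, and for sequences the GENCODE M21 transcripts were used. Counts were rounded for the chi-square test and for edgeR 4.0.16 (R 4.3.3), with TMM scaling, a mean of at least 10 counts and a prior count of 2 in log2 CPM. The fold between tables used a pseudocount of 1 for calls. 1 marker is not reported here. Tests were checked on simulated data. The simulated counts had counting error and set changes only, with no reads shared between genes and copies. DESeq2 1.42.0 size factors, other filters, pseudocounts and scalings, and leaving out each library were tried.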

Additional observations from a re-analysis of the deposited data

How the results depend on the processing

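The share of expected counts was 0.553% with copies and ranged from 0.355% to 0.433% when each library was left out. The share of TPM was 0.200% with the TPM of the direct tables, and 1.22% for the mRNAs among protein-coding genes, a smaller denominator by construction; leaving out each library gave 0.302% to 0.417%. Genes varying beyond counting error numbered 11, 14 and 15 of 15 without replicate 1, 2 and 3. Of all genes, 5209 of 13082, 8488 of 13731 and 8906 of 13748 then passed. With DESeq2 size factors, total counts, no filter or copies added, 15 of 15 varied. Over all genes these settings called 9861 of 13573, 9963 of 13573, 11937 of 22148 and 9866 of 13566. With the estimated counts of the direct tables, 18 of 19 varied, as did 13449 of all 16389 genes tested. There mt-Nd1 did not pass the chi-square test (adjusted p = 0.132). Genes apart in replicate 1 numbered 3 of 15 with replicate 2 or 3 left out of the reference, beside 1615 and 1884 of all 13573 genes. In the direct tables, where the tRNAs enter, they numbered 5 of 19, beside 4237 of all 16389 genes. Genes differing between the quantifications numbered 8, 9 and 8 of 19 without replicate 1, 2 and 3. Over all genes the counts were 2605 of 16591, 2751 of 16603 and 2650 of 16604. With copies added they numbered 5 of 19, beside 2438 of all 16597 genes. The 4 tRNA genes in each of these counts had no other outcome. The mean log2 difference of mt-Nd6 from the H-strand-encoded median was 0.227 to 0.411 without each library and 0.0333 among mRNAs without an annotated copy. It reversed to -0.356 with copies added, an alternative chosen after seeing the data, as were the copies-added settings of the variation and of the departures of replicate 1. Levels of single mRNAs and rRNAs moved by more than their SD for 10 of 15 genes with the TPM of the direct tables and for 5 of the 9 with copies. Leaving out 1 of 3 libraries cannot move a mean by more than its SD, so this rule could not decide there. Without replicate 1 mt-Rnr1 fell from 9.36 to 3.06 TPM and mt-Rnr2 from 4.48 to 1.36 TPM. The share of the summed mRNA level held by each mRNA moved by more than its SD for 10 of 13 mRNAs when counted per annotated length. Depth limits the tRNAs, with at most 147 counts each. No paired analysis was possible because all libraries belong to a single group.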

Other observations

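Neighbouring L-strand-encoded genes differed in how far replicate 1 stood from the other libraries, a pattern picked after its values were seen. In the direct table mt-Te, the tRNA gene next to mt-Nd6, was 5.39-fold higher in replicate 1, close in size to mt-Rnr1 at 5.15-fold and mt-Rnr2 at 4.74-fold, while mt-Nd6 itself was 1.26-fold higher. The counts behind it were 90, 25 and 22 for mt-Te and 4746, 5834 and 5581 for mt-Nd6 in replicates 1, 2 and 3. The difference between these genes was not tested.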
